A study of Mus musculus with 50 samples.

Results

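MHC class II genes were described across the dorsal root ganglia (the clusters of sensory neuron bodies beside the spinal cord) of 25 inbred mouse strains. The 8 genes are H2-Aa, H2-Ab1, H2-Ea, H2-Eb1, Cd74, H2-DMa, H2-DMb1 and Ciita, chosen by name as the chains, chaperones and master regulator of class II presentation. The array names 18193 genes on probe sets of their own. Of its 45037 probe sets without controls, on an Affymetrix mouse design, 17 carry 1 of these symbols and no other, over 7 of the 8 genes. H2-DMb1 is named only on 2 probe sets that it shares with H2-DMb2. All mice were naive, wildtype and 2 months old, and each array carried RNA pooled from 3 mice of 1 strain and sex. With 1 male and 1 female pool per strain there are 50 arrays, and those 2 pools are the only arrays of a strain. In the spelling of the labels the strains are AKR/J, BALB/CByJ, 129S1/Sv1mJ, BTBT T+tf/J, SJL/J, c57BL/6J, NZW/LacJ, BUB/BnJ, CBA/J, KK/HIJ, SM/J, PL/J, C58/J, RIIIS/J, NZO/HILtJ, DBA/2J, C3H/HeJ, NOD/LtJ, C57BR/cdJ, FVB/NJ, P/J, MRL/MpJ, SWR/J, A/J and NON/LtJ.

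Class II molecules are pairs of an alpha and a beta chain that show peptides from the endocytic route to CD4+ T cells. In the mouse they come as the A pair (H2-Aa with H2-Ab1) and the E pair (H2-Ea with H2-Eb1). The invariant chain, Cd74, guards the new pair on its way to the endosome, H2-DM exchanges its remnant for peptide, and Ciita switches the whole set on. In resting nervous tissue, macrophages, dendritic cells and B cells are known as the cells that carry class II. The H2 chains are among the most polymorphic genes of inbred mice, while Cd74 lies on another chromosome and is not polymorphic in that way.

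The genes share a promoter design, and the stretches that the RefSeq promoter table (GRCm38.p6) holds for them are shown for that reason. It held 4 of the 8 genes with 5 start sites, and each stretch is the 140 bases before the start, read 5′ to 3′ on the gene's strand. Capitals mark ATTGG, or CCAAT where it lies on the other strand, the core of the Y box that NF-Y binds, and further upstream TGACGTCA, the site of CREB-family factors, or TGATGATG. The last motif was chosen after these stretches had been read.
H2-Aa, chr17:34287824-34287963, minus strand: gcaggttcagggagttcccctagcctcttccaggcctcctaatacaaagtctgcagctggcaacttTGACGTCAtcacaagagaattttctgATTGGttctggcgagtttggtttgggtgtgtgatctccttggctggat
H2-Eb1, chr17:34305727-34305866, plus strand: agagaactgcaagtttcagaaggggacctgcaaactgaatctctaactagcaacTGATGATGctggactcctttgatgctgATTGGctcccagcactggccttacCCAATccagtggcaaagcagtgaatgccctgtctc
H2-DMb1, chr17:34153051-34153190, plus strand: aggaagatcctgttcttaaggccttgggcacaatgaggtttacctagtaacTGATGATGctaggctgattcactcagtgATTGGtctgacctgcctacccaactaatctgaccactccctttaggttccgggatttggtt

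In H2-Aa, ATTGG begins 48 bases and TGACGTCA 74 bases before the start, which puts their first bases 26 apart. In H2-Eb1 and H2-DMb1, ATTGG and TGATGATG begin 27 and 28 bases apart. Neither of the 2 H2-DMa stretches holds any of the 3 motifs. Of 32851 promoter stretches of this length, searched on both strands, 23.4% hold ATTGG, 1.33% hold TGACGTCA and 0.737% hold TGATGATG. These matches are letters in 1 reference genome, and no binding was measured.

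All levels below are log2(value + 1) of the deposited intensities, strain values are means of the male and the female array, and a range is the highest minus the lowest strain mean. A probe set was tested when its level was above 4 in at least 2 arrays, which 11 of the 17 member probe sets over 6 genes passed. Array medians ran from 9.43 to 10.5 in linear intensity, and 18703 to 19327 probe sets an array were above 4. The lowest intensities of male arrays (1.629 to 1.655) and of female arrays (1.726 to 1.744) did not overlap. Transcripts of the other sex were high in 2 arrays: the male PL/J array had Xist at 8.97 against a male median of 2.94, and the female SM/J array had the Y-linked Eif2s3y at 6.82 against a female median of 3.08. Kdm5d, another Y-linked gene, was at 2.67 in that SM/J array, beside a female median of 2.68 and a male range of 3.68 to 5.58. Xist also stood at 7.78 in the male BTBT T+tf/J and at 6.73 in the male SWR/J array. As a check on RNA quality, the Gapdh control signal near the 3′ end minus that near the 5′ end was taken in log2 units. It was highest among males in BTBT T+tf/J (0.60, male median -0.58) and among females in P/J (0.34, female median -0.62). Values of these strains below rest in part on these arrays. Sensory neuron genes were high in all arrays, as the tissue label says, with list genes such as Nefl, the light neurofilament, and Uchl1 averaging 14.0 and 13.1.

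All 11 tested member probe sets differed between strains (limma's moderated F test with sex as an additive term, Benjamini-Hochberg adjusted p under 0.05), against 24.7% of all 22205 probe sets tested. H2-Ea 1422892_s_at and H2-Ab1 1425477_x_at, above 4 in 16 and 10 arrays, passed the filter only through the minority of arrays where they were high. The 11 probe sets cover 6 genes on the same arrays, so they are not separate tests. The median range was 2.18 log2 units over the members and 0.87 over all tested probe sets. All 11 were also called with SM/J and PL/J left out, and in each of the 50 fits that left out 1 array. Without the sex term, 8 were called: H2-Aa 1438858_x_at (adjusted p = 0.151) and 1435290_x_at (0.0593) and H2-Ab1 1451721_a_at (0.0616) lost the call. No probe sequences were used, so for the H2 chains the level of a transcript and the match of a strain's allele to the probes cannot be told apart. In bulk tissue, fewer cells of a type and less RNA per cell cannot be told apart either.

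**Figure D1:**
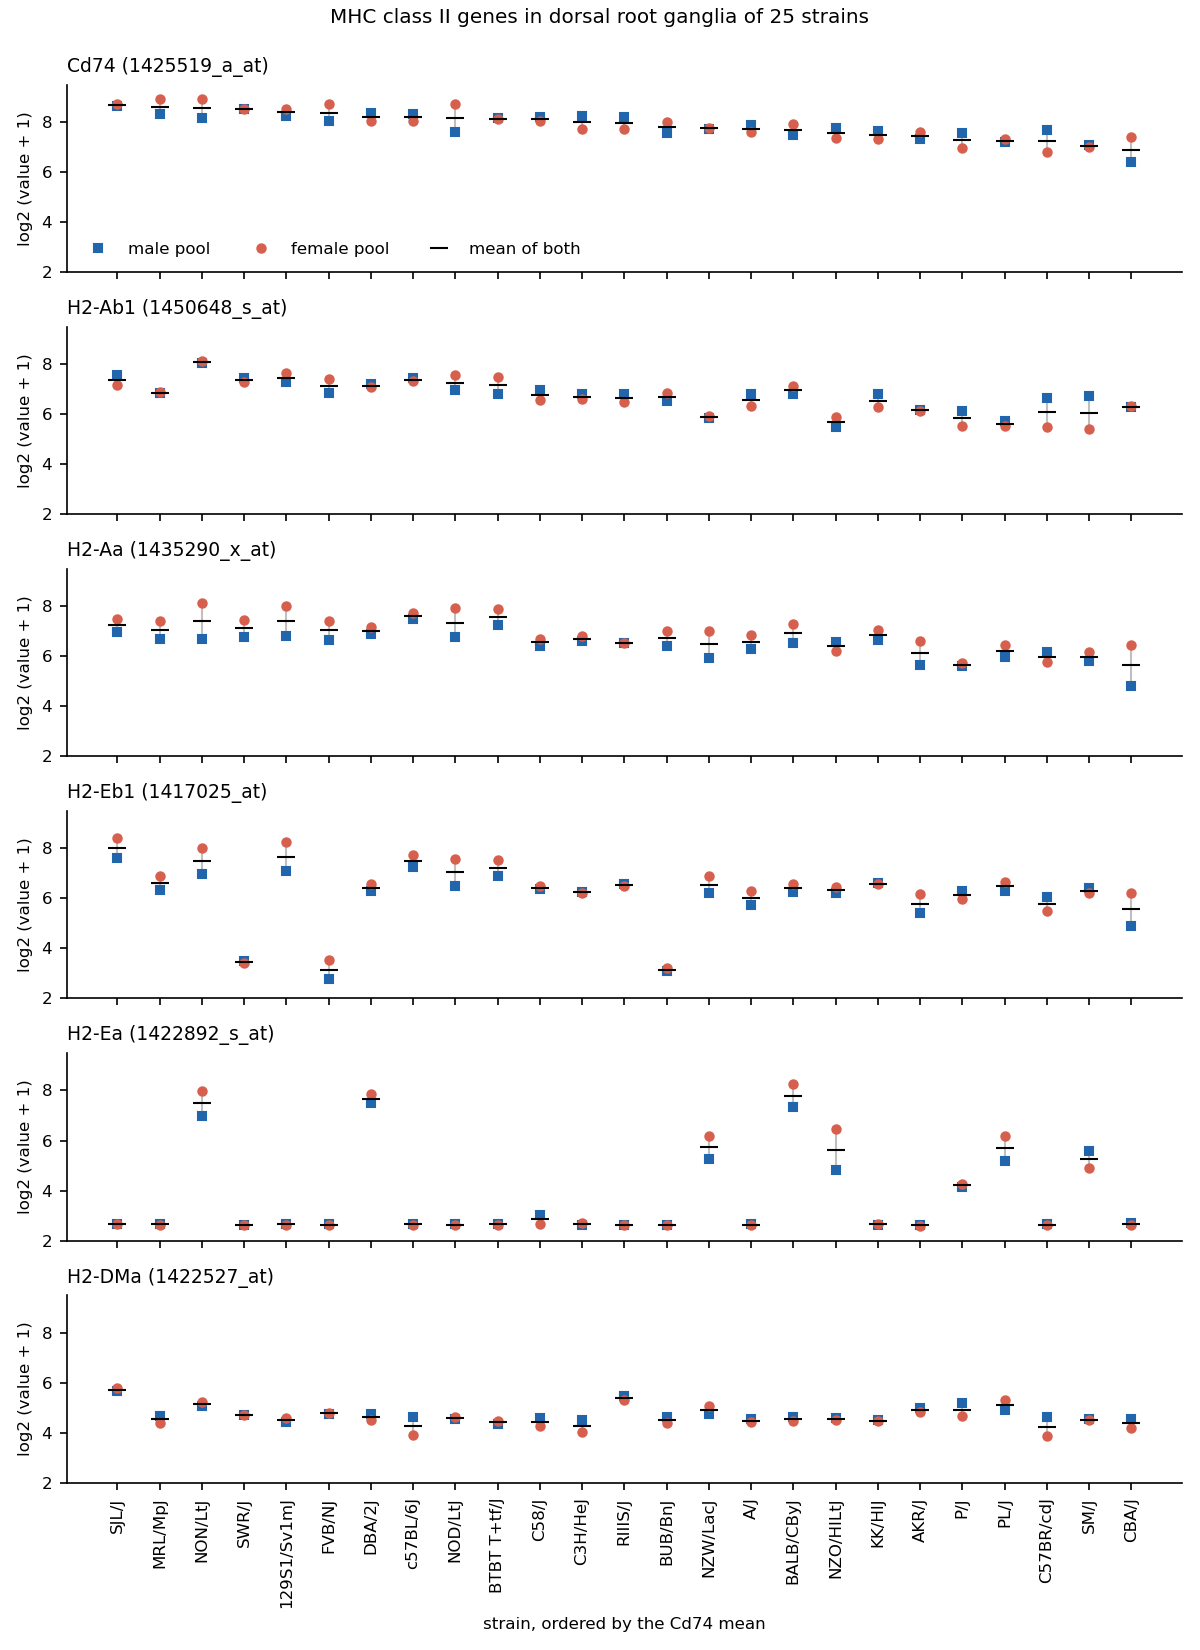
Levels of 6 class II genes, as log2(value + 1), in the male pool (squares) and the female pool (circles) of 25 strains, with a bar at the mean of both; strains are ordered by their Cd74 mean. Cd74 steps down gradually, since the strains are sorted on it, whereas H2-Eb1 drops to between 3.14 and 3.45 in 3 strains and H2-Ea 1422892_s_at stands above 4 in 8.

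Cd74, measured by 1 probe set (1425519_a_at), was detected in all 50 arrays, from 6.40 through a median of 7.90 to 8.93. The highest strains were SJL/J at 8.68 ± 0.07 (SD, n = 2), MRL/MpJ at 8.62 ± 0.44, NON/LtJ at 8.55 ± 0.53 and SWR/J at 8.51. The middle of the order ran from 129S1/Sv1mJ (8.39), FVB/NJ (8.37), DBA/2J (8.19), c57BL/6J (8.19), NOD/LtJ (8.16), BTBT T+tf/J (8.14) and C58/J (8.11) to C3H/HeJ (7.99), RIIIS/J (7.97), BUB/BnJ (7.79), NZW/LacJ (7.75), A/J (7.74) and BALB/CByJ (7.69). The lower end held NZO/HILtJ (7.56), KK/HIJ (7.49), AKR/J (7.45), P/J (7.28), PL/J (7.26), C57BR/cdJ (7.25), SM/J at 7.05 ± 0.06 and CBA/J at 6.89 ± 0.70. None of the 24 gaps between neighbours in this order was larger than the residual SD of 0.36, so the order is a slope without steps.

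The strain means of Cd74 spanned 1.79 log2 units (limma F test, Benjamini-Hochberg adjusted p = 0.00134), and 1.63 to 2.27 when single arrays were left out. Against the other 24 strains, CBA/J alone reached the required size of 1 log2 unit together with the threshold, and was lower by -1.03 (SE 0.25, adjusted p = 0.0143). Its arrays were far apart, at 6.40 in males, the lowest of all 50 arrays, and 7.39 in females, a value inside the range of other strains. SM/J, with an SD of 0.06, differed by -0.86 (adjusted p = 0.0489), short of the required size. Of the 275 such comparisons over the members, 20 were called higher and 26 lower, against 0.497% and 0.644% of all comparisons. Of these 46 calls, 23 belonged to H2-Ea 1422892_s_at, whose split into low and high strains puts most of them 1 log2 unit or more from the mean of the rest.

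H2-Ab1, the beta chain of the A pair, was highest in NON/LtJ, at 8.03 in males and 8.11 in females on its leading probe set (1450648_s_at). That strain stood 1.42 above the others (SE 0.24, adjusted p = 0.000341), and the gap of 0.62 to 129S1/Sv1mJ (7.45 ± 0.26) was the only one of 24 beyond the residual SD of 0.35. Next came c57BL/6J at 7.39. The lowest were PL/J, with 5.72 and 5.53 in males and females, NZO/HILtJ, with 5.49 and 5.90, and P/J, with 6.11 and 5.55. PL/J (-1.13, adjusted p = 0.0047) and NZO/HILtJ (-1.06, adjusted p = 0.0087) were called lower in the limma contrasts. Both arrays of NON/LtJ lay above every other strain mean. The range was 2.44 (adjusted p = 2.0e-05), and 2.38 with SM/J and PL/J left out.

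The other H2-Ab1 probe sets ordered the strains in part alike, 1451721_a_at more so than 1425477_x_at. As deviations from each probe set's mean over strains, P/J stood at -1.19 on 1451721_a_at and -0.13 on 1425477_x_at. For 129S1/Sv1mJ these values were 0.61 and -0.04. Over 25 strain means, 1450648_s_at correlated at r = 0.90 with 1451721_a_at and at 0.78 with 1425477_x_at, and the latter pair at 0.76. NON/LtJ came first on 1451721_a_at (6.12, before SJL/J at 5.99 and NOD/LtJ at 5.88), which ranged over 2.20 (adjusted p = 0.0266). P/J came last there at 3.92, after PL/J (4.23) and AKR/J (4.27), and was called lower by -1.24 (adjusted p = 0.0482). Its 2 arrays differed, at 4.86 in males and 2.97 in females, and without the male array the range rose to 3.30. The female P/J array is the one with the raised Gapdh difference (0.34). On the dim 1425477_x_at, above 4 in 10 arrays, the range was 1.68 (adjusted p = 0.00556), from NOD/LtJ at 4.41, NON/LtJ at 4.32 and FVB/NJ at 4.19 down to PL/J, which was lowest with 2.73, below KK/HIJ with 2.80 and NZO/HILtJ with 2.83. These correlations are descriptions, since the probe sets share arrays and the gene.

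H2-Aa, the alpha chain of the A pair, gave a strain order that depended on the probe set. On 1438858_x_at, which had the highest mean, c57BL/6J came first with 7.81 and 7.80 in males and females, before NON/LtJ (6.81 and 8.32) and 129S1/Sv1mJ (6.90 and 7.88), and CBA/J last with 5.27 and 6.64, below PL/J (6.27) and AKR/J (6.33). The range was 1.85 (limma F test, adjusted p = 0.0146), and c57BL/6J was called higher by 1.10 (SE 0.24, adjusted p = 0.0064). On 1435290_x_at the same strain was first (7.62), followed by BTBT T+tf/J (7.58) and 129S1/Sv1mJ (7.43), while P/J (5.66), called lower by -1.11, and CBA/J (5.64), called lower by -1.14, were last after C57BR/cdJ (5.97). Its range was 1.98 (adjusted p = 0.000161). On 1452431_s_at, in contrast, SWR/J (8.10 ± 0.17) and FVB/NJ (8.07 ± 0.57) led, before NOD/LtJ (7.60), and were called higher by 1.49 and 1.47. PL/J was lowest there with 5.02 ± 0.47 and called lower by -1.71 (adjusted p = 0.00527), below SM/J (5.52) and KK/HIJ (5.55). That range was 3.08 (adjusted p = 0.000645), and 2.54 with SM/J and PL/J left out.

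Set against its own mean over strains, 1452431_s_at was 1.43 higher in SWR/J and 1.41 higher in FVB/NJ, where 1438858_x_at was at -0.11 in both. In PL/J the same probe sets were at -1.65 and -0.48. The difference between these deviations ran from -1.54 in SWR/J to 1.16 in PL/J, and the correlation of the pair over strains was 0.40. The correlation of 1438858_x_at with 1435290_x_at was 0.78, and that of 1435290_x_at with 1452431_s_at was 0.64. A further probe set, 1443783_x_at, was not above 4 in any array. By strain mean, CBA/J and PL/J were low and NON/LtJ high on all 3 tested probe sets. SWR/J, FVB/NJ and SM/J were placed differently by them. The pools of CBA/J were far apart on each, for example 4.81 in males and 6.46 in females on 1435290_x_at. Those of NON/LtJ were as well, with 6.69 and 8.12 there. The probe sets share these arrays, so their accord on CBA/J and NON/LtJ is not separate evidence of a strain level.

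**Figure D2:**
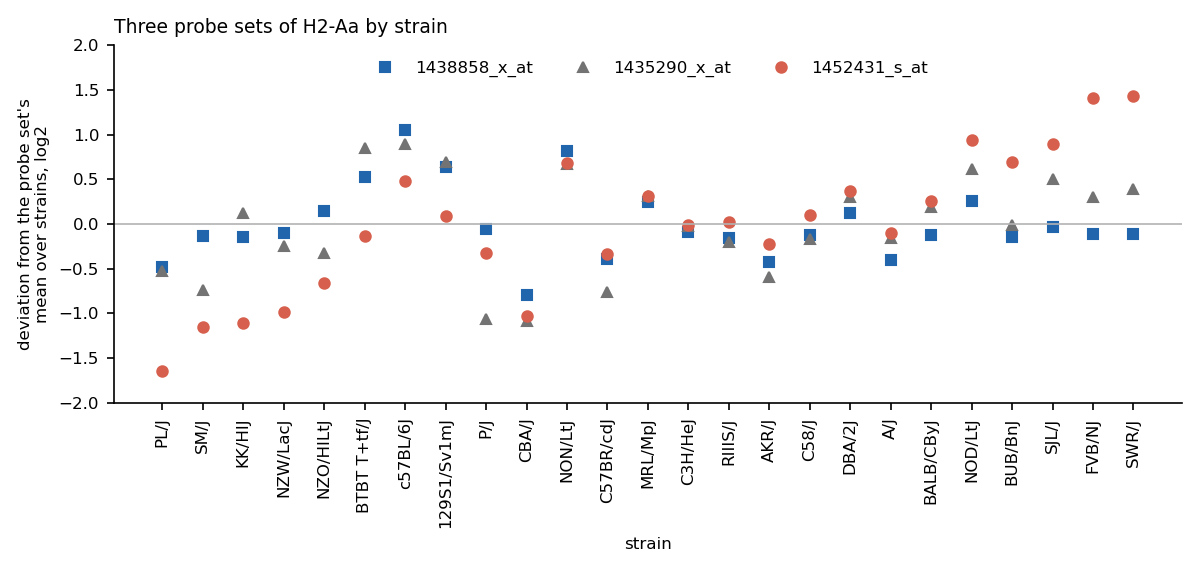
Deviation of each strain mean from the probe set's own mean over 25 strains, in log2 units, for the 3 tested probe sets of H2-Aa; strains are ordered by 1438858_x_at minus 1452431_s_at. The markers coincide closely in the middle, for example in C3H/HeJ, and part at the ends, by 1.16 in PL/J and -1.54 in SWR/J.

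H2-Eb1, the beta chain of the E pair, split the strains into groups that did not overlap (1417025_at, range 4.88, limma F test adjusted p = 8.1e-12). In males and females, SWR/J read 3.48 and 3.41, BUB/BnJ 3.08 and 3.22, and FVB/NJ 2.76 and 3.52. All 6 arrays were below 4 and every array of the 22 other strains was above it, the lowest being the male CBA/J array at 4.92. The gap between CBA/J (5.58 ± 0.93) and SWR/J was 2.13 log2 units against a residual SD of 0.35. The 3 strains were called lower by -2.86, -3.17 and -3.18 (adjusted p = 1.8e-09 for SWR/J, the least small). As background, SWR/J, BUB/BnJ and FVB/NJ carry the H2 haplotype q, which is known to make neither E chain.

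Above that gap, SJL/J was highest with 7.62 in males and 8.43 in females, called higher by 1.90 (adjusted p = 4.1e-06). 129S1/Sv1mJ (7.67 ± 0.83), c57BL/6J (7.51 ± 0.33), NON/LtJ (7.50 ± 0.73) and BTBT T+tf/J (7.21 ± 0.47) were called higher as well, by 1.05 to 1.54. NOD/LtJ followed at 7.05, and a gap of 0.43 separated it from MRL/MpJ (6.61). Below came KK/HIJ (6.59), RIIIS/J (6.55), NZW/LacJ (6.55), PL/J (6.48), BALB/CByJ (6.43), DBA/2J (6.43), C58/J (6.43), NZO/HILtJ (6.33), SM/J (6.31), C3H/HeJ (6.24), P/J (6.12), A/J (6.02), AKR/J (5.79) and C57BR/cdJ (5.76), with no gap beyond the residual SD down to CBA/J.

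H2-Ea, the alpha chain of the E pair, showed a split of another kind on 1422892_s_at, with a range of 5.18 (limma F test, adjusted p = 4.3e-15). In males and females, BALB/CByJ read 7.34 and 8.24, DBA/2J 7.49 and 7.85, and NON/LtJ 6.97 in males with a mean of 7.48 ± 0.73 over both. After a gap of 1.76 followed NZW/LacJ with 5.27 and 6.17, PL/J with 5.17 and 6.19, NZO/HILtJ with 4.83 and 6.45, and SM/J with 5.60 and 4.89. P/J stood alone with 4.14 and 4.27, a gap of 1.04 below SM/J and of 1.36 above the next strain. The other 17 strains lay between 2.61 (AKR/J) and 2.85 (C58/J). Within those 17 the gaps were smaller than the residual SD of 0.36. The median SD over strains was 0.026 and the largest 1.15 (NZO/HILtJ), so this comparison cannot tell whether the 17 are alike. The arrays above 4 were thus the 16 arrays of these 8 strains, with both pools of each strain on the same side.

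The second H2-Ea probe set, 1422891_at, placed the same 8 strains on top, a count chosen after the values were seen. NZO/HILtJ led with 6.48 in males and 8.13 in females, before NZW/LacJ with 6.18 and 8.33 and NON/LtJ with 6.51 and 7.48. BALB/CByJ (6.73), SM/J (6.52), DBA/2J (6.46), PL/J (6.39) and P/J (6.38) followed. A gap of 0.80, beyond the residual SD of 0.33 and the only such gap, parted P/J from SWR/J (5.57), and the remaining strains ran down to C58/J (5.17), RIIIS/J (5.16) and AKR/J (5.12). The range was 2.18 (adjusted p = 7.3e-07), and the correlation of both probe sets over strains was 0.89. The order within the 8 strains differed: BALB/CByJ and DBA/2J were first and second on 1422892_s_at, and NZO/HILtJ and NZW/LacJ on 1422891_at. A further probe set, 1426202_at, was not above 4 in any array.

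As background, strains of the haplotypes b, s, q and g7 are known to make no E alpha chain, and the strains held to carry them are c57BL/6J, 129S1/Sv1mJ, BTBT T+tf/J, SJL/J, FVB/NJ, SWR/J, BUB/BnJ and NOD/LtJ. All 8 were among the 17 low strains, between 2.63 and 2.66 on 1422892_s_at and between 5.24 and 5.57 on 1422891_at. Their H2-Eb1 levels fell on both sides: FVB/NJ, SWR/J and BUB/BnJ were the 3 lowest strains, while SJL/J, 129S1/Sv1mJ, c57BL/6J, BTBT T+tf/J and NOD/LtJ were 5 of the 6 highest. AKR/J, C3H/HeJ and CBA/J carry haplotype k, which is known to make E alpha, and read 2.61, 2.66 and 2.65 on 1422892_s_at, about the levels of the strains above. These 3 were singled out after their values were seen. The rest of the 17 low strains, A/J, C57BR/cdJ, C58/J, KK/HIJ, MRL/MpJ and RIIIS/J, were not assigned a haplotype here. Whether the probes match the k allele was not tested, so a low reading on these probe sets cannot be taken as a low transcript level. The RefSeq table of the reference genome lists H2-Ea as a transcribed pseudogene.

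H2-DMa, a chain of the peptide exchange factor H2-DM, had the smallest range of the tested members, 1.47 (1422527_at, limma F test adjusted p = 9.75e-05). SJL/J was highest at 5.71 ± 0.09, with 5.65 in males and 5.77 in females, and was called higher by 1.08 (SE 0.15, adjusted p = 2.0e-05). RIIIS/J followed at 5.40 ± 0.10 and NON/LtJ at 5.14 ± 0.12, with gaps of 0.31 and 0.25 beyond the residual SD of 0.21. Both SJL/J arrays lay above every array of the other strains. The lowest were c57BL/6J (4.26), C3H/HeJ (4.26) and C57BR/cdJ (4.24), which did not differ beyond their spread from their neighbours. The probe set 1459872_x_at of the same gene was not above 4 in any array.

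The partner chain H2-DMb1 could be read only together with H2-DMb2. The shared 1418638_at averaged 4.03 and was highest in BTBT T+tf/J (4.53), KK/HIJ (4.50) and c57BL/6J (4.45) and lowest in AKR/J (3.83), C58/J (3.81) and BALB/CByJ (3.76). It did not pass the strain test (limma, adjusted p = 0.354), and none of its 24 neighbour gaps was beyond the residual SD of 0.29. The shared 1449580_s_at passed it (adjusted p = 0.0104, limma) but was above 4 in only 3 arrays. It was highest in NON/LtJ, where the male array read 3.48 and the female array 5.51, and next in KK/HIJ (3.88) and FVB/NJ (3.60). A probe set of H2-DMb2 alone averaged 3.70 and did not pass the strain test (adjusted p = 0.269). The master regulator Ciita was not above 4 in any of the 50 arrays on any of its 3 probe sets, and the leading one averaged 3.07 and ran from 3.00 to 3.25, so that no strain order could be read.

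Next, the members were set against Cd74. Over the 25 strain means, the correlation with Cd74 was 0.82, 0.86 and 0.66 for the H2-Ab1 probe sets 1450648_s_at, 1451721_a_at and 1425477_x_at. For H2-Aa it was 0.63, 0.85 and 0.79 on 1438858_x_at, 1435290_x_at and 1452431_s_at. H2-Eb1 correlated at 0.14 over all strains and at 0.78 over the 22 strains above 4, a cut chosen after the values were seen. H2-DMa stood at 0.25, and H2-Ea at -0.20 on 1422891_at and -0.11 on 1422892_s_at. Over all 25 strains, the A chains thus followed Cd74 and the H2-Ea probe sets did not. On H2-Ea 1422892_s_at, 17 of the strains lay between 2.61 and 2.85. Its correlation with Cd74 over the 8 strains above 4 was not computed, so H2-Ea and H2-Eb1 were not read alike. All points come from the same arrays, so these values are descriptions over n = 25 strains.

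**Figure D3:**
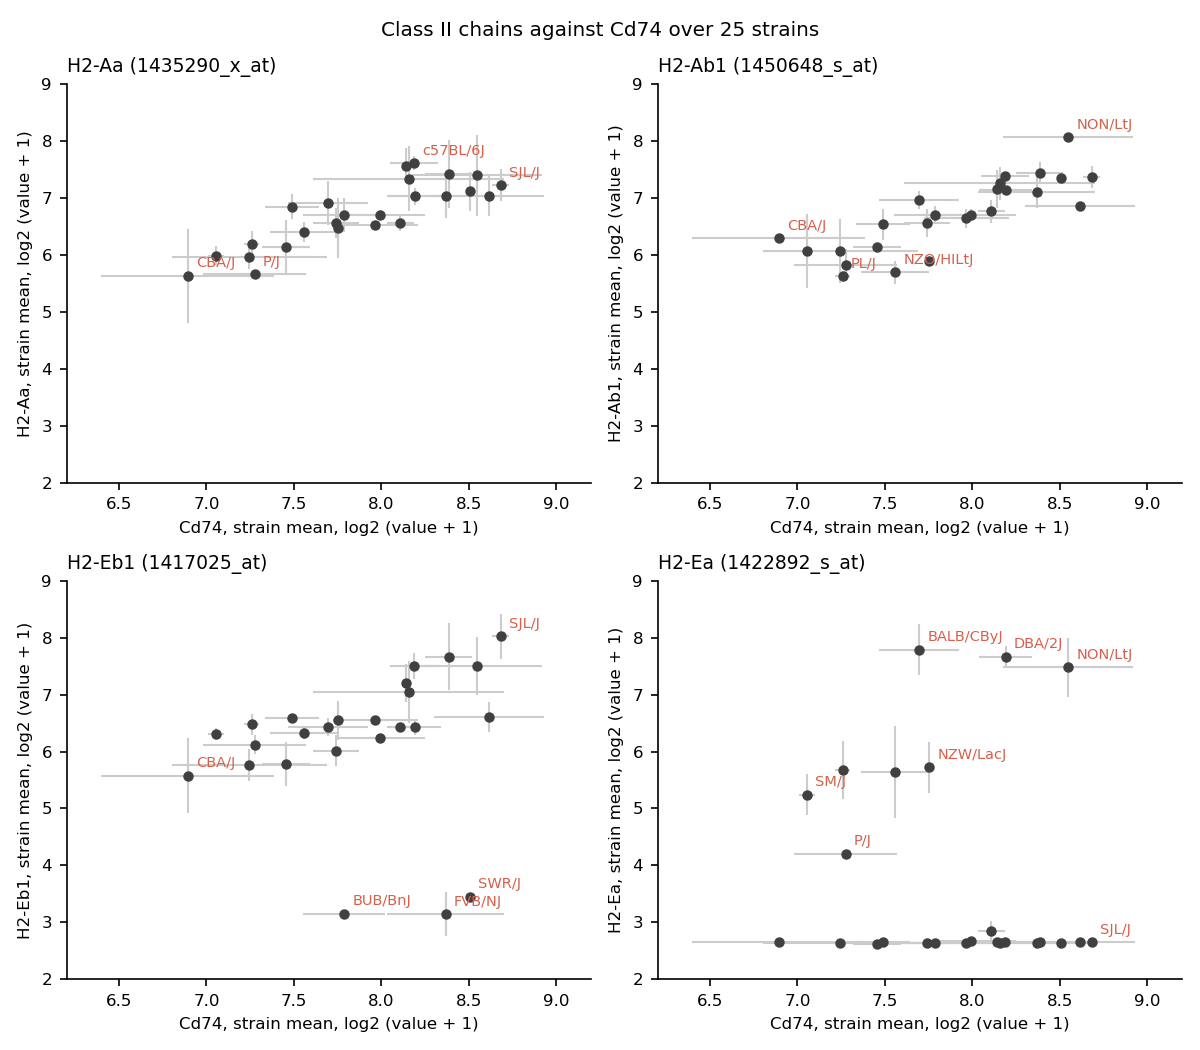
Strain means of 4 class II chains against the strain mean of Cd74, all as log2(value + 1), with lines from the male to the female value. H2-Aa 1435290_x_at and H2-Ab1 rise along with Cd74 (r = 0.85 and 0.82). The other H2-Aa probe sets stand at 0.63 and 0.79. H2-Eb1 rises with Cd74 (r = 0.78) apart from SWR/J, FVB/NJ and BUB/BnJ. H2-Ea 1422892_s_at lies in layers (r = -0.11 over all 25 strains).

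When the Cd74 value of the same array was subtracted, 7 of the 10 other member probe sets differed between strains, but so did 22195 of all 22204 probe sets (100%), because Cd74's own strain differences then enter every one of them. This count therefore says little of the members. The 9 probe sets not called included 3 members: H2-Ab1 1450648_s_at (adjusted p = 0.0675) and 1451721_a_at (0.431) and H2-Aa 1435290_x_at (0.222). A fit with Cd74 of the same array as a covariate, added after the data were seen, called 9 of the 10, against 24.9% of all probe sets. The exception was H2-Ab1 1451721_a_at (limma, adjusted p = 0.26). Strain was also a term in that fit, so its slope on Cd74 came from the pools within a strain, not from differences between strains. In that fit the ranges were 1.80 for H2-Ab1 1450648_s_at, 1.19 for H2-Aa 1435290_x_at, 1.33 for H2-DMa, 4.65 for H2-Eb1 and 5.18 for H2-Ea 1422892_s_at. Cd74 itself thus differed between strains. With the covariate, the A chains had smaller ranges, and those of H2-Eb1 and of H2-Ea 1422892_s_at stayed above 4 log2 units. H2-Ea 1422891_at ranged over 2.19 in that fit, against 2.18 without the covariate. The slopes were 0.58 for H2-Ab1 1450648_s_at, 0.84 for H2-Aa 1435290_x_at and 0.75 for H2-Eb1. They were 0.025 for H2-Ea 1422892_s_at and -0.13 for H2-Ea 1422891_at. Such small slopes leave a range almost as it was. The H2-Ea ranges in that fit therefore say little of how H2-Ea varies with Cd74 over strains.

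Single strains, picked after their values were seen, went apart from Cd74 in some cases and with it in others. As deviations from each probe set's mean over strains, FVB/NJ stood at 0.49 for Cd74 and -3.05 for H2-Eb1, and SWR/J at 0.63 and -2.75. BALB/CByJ stood at -0.19 for Cd74 and 4.01 for H2-Ea 1422892_s_at. NON/LtJ was above the mean on both, at 0.67 for Cd74 and 3.70 for H2-Ea 1422892_s_at. In CBA/J, Cd74 (-0.99), H2-Aa 1438858_x_at (-0.80) and H2-Aa 1435290_x_at (-1.09) were all below their means. These deviations rest more on the male than on the female CBA/J array. In males and females, Cd74 read 6.40 and 7.39 there, and H2-Aa 1435290_x_at 4.81 and 6.46. The male array also had the fewest probe sets above 4 of all 50 arrays (18703).

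The male and female pools of a strain were then compared as the check on each order. Over 25 strains, the male to female correlation was r = 0.61 and rho = 0.65 for Cd74, and it was 0.59 without CBA/J and SM/J, the strains farthest from the median (two-sided permutation test, Benjamini-Hochberg adjusted p over 7 genes = 0.00129 for r). It was 0.76 for H2-Ab1 (adjusted p = 5.25e-05, permutation test) and 0.77 for H2-DMa (adjusted p = 5.25e-05, 0.58 without SJL/J and RIIIS/J). For H2-Aa 1438858_x_at it was 0.48 (permutation test, adjusted p = 0.0206) and fell to 0.40 without CBA/J and c57BL/6J (unadjusted permutation p = 0.0622), so most of it stayed without passing the threshold. For Ciita it was -0.06 (permutation test, adjusted p = 0.502). H2-Eb1 and H2-Ea fall into separate clusters, so they were read within them: r was 0.76 over the 22 strains with H2-Eb1, and 0.15 over the 17 strains low on H2-Ea 1422892_s_at. The 8 high strains lie in steps of their own there, so no r is given for them. On 1422891_at the values were 0.38 over the 8 and 0.11 over the 17 strains.

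**Figure D4:**
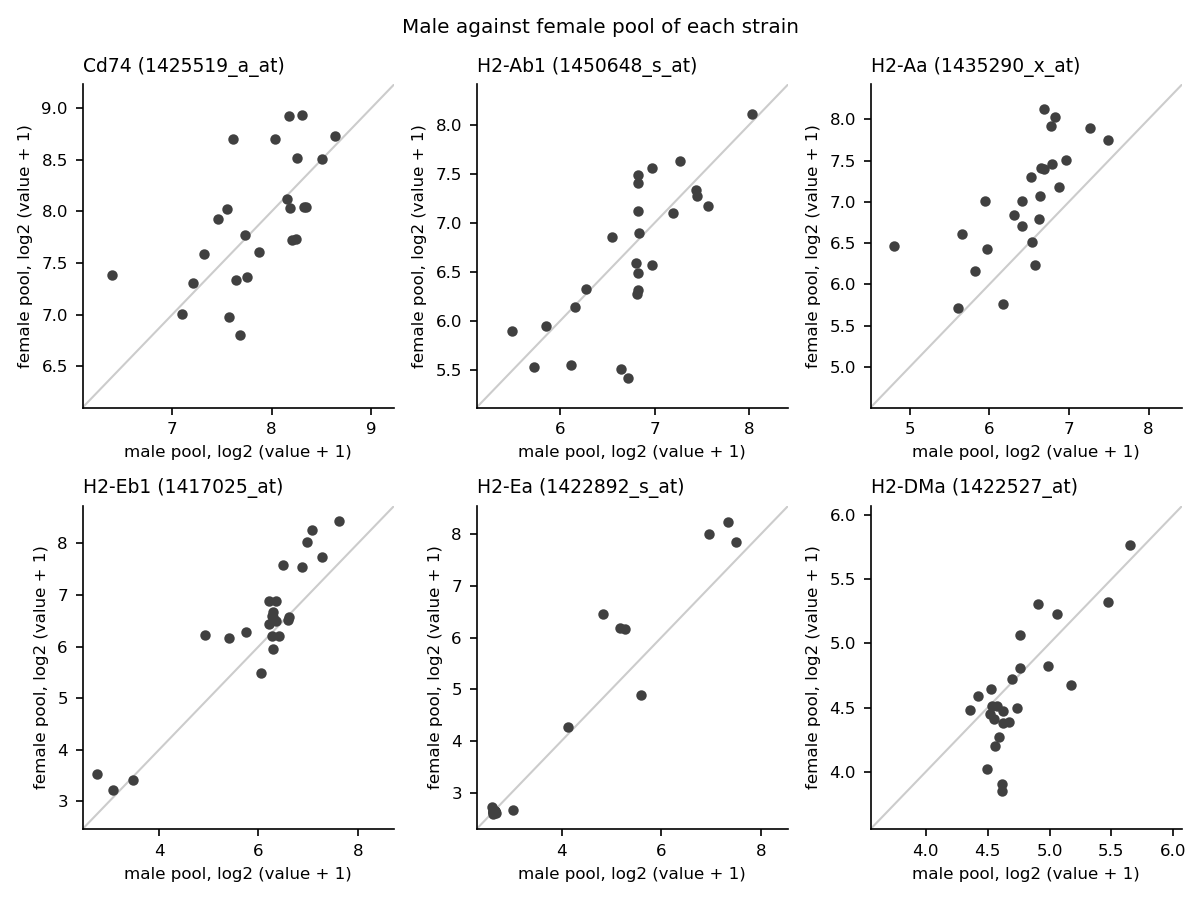
Female against male pool of each strain, as log2(value + 1), for 6 class II genes, with the line of equal values; each point is 1 strain. H2-Eb1 and H2-Ea fall into separate clusters on the same side in both sexes, and most points of H2-Aa lie above the line (22 of 25 strains higher in females).

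Of the 11 tested member probe sets, 5 were higher in females and 0 in males (limma, adjusted p under 0.05), against 34% and 23.6% of all tested probe sets. H2-Ea 1422891_at was higher in females in 25 of 25 strains, with 5.40 in males and 6.15 in females on average (male minus female -0.76, SE 0.09, adjusted p = 4.3e-08). H2-Aa 1435290_x_at (-0.57, 22 of 25 strains), H2-Eb1 (-0.40, 18 strains), H2-Aa 1438858_x_at (-0.35, 21 strains) and H2-Ab1 1425477_x_at (-0.24, 16 strains, adjusted p = 0.0412) were called as well. Cd74 differed by -0.06 (adjusted p = 0.608), higher in males in 13 strains and in females in 12. Because the lowest intensities of the sexes do not overlap, sex and a separate normalization of the sexes cannot be told apart, and with quantile normalization of all arrays 6 of the 11 were called.

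Of the other genes of the class II pathway, 4 of 16 tested differed between strains, which is close to the share of all probe sets. Rfxank, a subunit of the RFX complex, ranged over 1.68 (129S1/Sv1mJ at 5.56 to c57BL/6J at 3.88, adjusted p = 0.00696). Cd83, a surface protein of mature dendritic cells, ranged over 1.33 (C57BR/cdJ at 4.49 to SM/J at 3.16, adjusted p = 0.00595, limma). It averaged 3.45 and was above 4 in only 3 arrays. Cd83 was thus tested only because of the few arrays where it was high, and its call says little. Ctsl, the protease cathepsin L, ranged over 1.15 (C57BR/cdJ at 13.1 to BTBT T+tf/J at 11.9, adjusted p = 0.000893, limma), and the interferon factor Irf1 was the fourth. Ctss, the cathepsin that degrades the invariant chain, ranged over 2.56 without passing (adjusted p = 0.0599). The list's median range was 0.76, and 11 of its 24 genes with a probe set averaged below 4, among them H2-Oa (2.35), H2-Ob (2.82), Cd86 (2.81) and Cd80 (3.02).

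Among class I and neighbouring genes of the H2 region, 4 of 7 tested were called, against 24.7% of all probe sets tested. H2-K1 (range 5.69, adjusted p = 2.9e-14) and H2-D1 (4.74, adjusted p = 4.9e-13, limma), polymorphic like the class II chains, were highest in BUB/BnJ and lowest in AKR/J. B2m, the light chain of class I, ranged over 1.42 (adjusted p = 0.000957, limma), and Tapbp was the fourth. Tap2 and Psmb8, which lie among the class II genes, were not called (adjusted p = 0.535 and 0.358, limma).

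Markers of the cells that can carry class II were read beside Cd74. Of 14 tested macrophage genes, 4 differed between strains, against 24.7% of all probe sets tested: Aif1 (range 2.93), C1qb (2.15), Cd163 (1.96) and Mrc1. Cd163 lost its call without the sex term (adjusted p = 0.354, limma) and with the female pool of NON/LtJ left out (0.097). C1qb, at 0.0358, lost its call in 11 of the 50 fits without 1 array and without the sex term (adjusted p = 0.0537, limma), and its range was 1.38 without the female C57BR/cdJ array. The mean of the 14 genes ran from 4.71 in KK/HIJ to 5.87 in C57BR/cdJ and correlated with Cd74 at 0.19 over strains. The C57BR/cdJ arrays were far apart in that mean, with 4.98 in males and, as the highest of all 50 arrays, 6.77 in females. Without this female array, a setting chosen after the data were seen, MRL/MpJ was highest at 5.62 and the correlation was 0.41. The correlations of single macrophage genes with Cd74 ranged from -0.10 for Fcer1g to 0.53 for Fcgr3, an IgG receptor. Of the dendritic cell list 2 genes were tested and 0 called, of the B cell list 1 tested and 0 called, and of the T cell list 0 were tested. Itgax (2.37), Cd79a (2.48) and Cd3e (2.58) were not above 4 in any array. The part of cell number in the strain differences was not tested.

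Of the lists for the ganglion's own cells, 2 of 8 neuron genes were called (Isl1, range 0.94, and Scn10a, 0.62), near the share of all probe sets (24.7%). Of the 4 glia genes tested, 2 were called (S100b, 0.66, and Fabp7, 0.65), against the same share of all probe sets. Fabp7 lost its call in 5 of the 50 fits without 1 array, and without the sex term both S100b (adjusted p = 0.113, limma) and Fabp7 (0.65) lost theirs. The means of the neuron and the glia list correlated with Cd74 at -0.16 and 0.02. The 10 genes outside the members whose strain means were most like those of Cd74, by Pearson's r over 25 strains among 11225 genes, were Stx8 (0.72), Stmn4 (0.69), Sec61b (0.68), Mrps6 (0.67), St6gal1 (0.67), Zc3h10 (0.66), Aspscr1 (0.65), Ndufa1 (0.65), Gpr137b-ps (0.64) and Bri3 (0.62). They are the top of a large search, and no p was computed for r. Mrps6, St6gal1 and Aspscr1 differed between strains (limma F test, adjusted p = 0.0245, 0.0098 and 0.0396), and the rest of the 10 did not pass. In males alone, r with Cd74 ran from 0.40 (Bri3) to 0.55 (Stmn4).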

How the data were processed

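The authors deposited GCRMA intensities on a linear scale, computed under R 2.6.2 according to the submitters' processing notes; further settings are not given in the sources used here. All tests used log2(value + 1), as planned for values on a linear scale. Probe sets were named from the platform annotation, by which 34945 of 45037 carry exactly 1 symbol, and 34741 of these matched the RefSeq table. The 64 control probe sets were left out. limma 3.58.1 in R 4.3.3 (lmFit, eBayes) fitted strain and sex on 50 arrays, with Benjamini-Hochberg adjustment over all tested probe sets, and, for single strains, over every pair of probe set and strain. The number of arrays limits the precision, and with 2 pools a strain p-values measure the spread between these pools, not between single mice. A neighbour gap was read against the residual SD. Permutation tests used 100000 resamples. The fits were tested on simulated data. Named were all member probe sets, the 3 highest and lowest strains (every strain for Cd74, H2-Ea and H2-Eb1), the called genes with the 3 largest ranges of each list and the 10 genes most like Cd74, plus other list genes, chosen after their values were seen. The members and lists were chosen with earlier results of these data known. Alternatives were the constant, the filter, quantile normalization, the variance model, the sex term, and arrays or strains left out.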

Additional observations from a re-analysis of the deposited data

How the results depend on the processing

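Over 9 other settings, 8 to 11 member probe sets were called for strain, and 11 in every fit without 1 array; the Cd74 range stayed between 1.63 and 2.27 in all of them, with an adjusted p of at most 0.00722 (limma). Over all probe sets, 5475 were called with sex as the replicate block, 2752 with no replicate block (no sex term), and 4805 to 8304 when 1 array was left out, 8304 without the male P/J array. Relative to Cd74, 7 of 10 members were called, 14 of 16 with no filter on dim probe sets, 5 with a filter at 6, and 7 to 8 without 1 array. The filter at 6 left H2-DMa and H2-Ab1 1425477_x_at untested, whose highest arrays read 5.77 and 5.11. The 46 calls of single strains became 20 with log2(value + 16), which shrinks differences of dim probe sets: the range fell to 0.78 for H2-Ab1 1425477_x_at, to 1.43 for H2-Ab1 1451721_a_at, to 0.98 for H2-DMa, to 0.64 for Cd83, to 1.07 for Rfxank and to 1.26 for Cd163. They were 58 with no minimum difference and 43 to 49 without 1 array. Calls for sex went from 5 to 3 with no replicate block (no strain term), and were 4 to 6 without 1 array. H2-Ab1 1451721_a_at lost its strain call with no filter (adjusted p = 0.0859, limma). C1qb lost its call with SM/J and PL/J left out (0.0796). The cause of these changes was not tested beyond what each setting does by construction. No group held 4 to 10 arrays, so single outlying arrays could not be tested within a strain.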
